A study of Rattus norvegicus with 287 samples.

Results

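Collagens are secreted helical proteins that form much of the scaffold outside cells, and the set a tissue transcribes reflects the kinds of matrix it builds. Fibrillar collagens such as types I and III form the banded fibrils of connective tissue, and FACIT collagens lie on the surface of those fibrils. Type IV collagen forms the network of basement membranes, and type VI forms beaded filaments beside them. In liver, stellate cells and portal fibroblasts are known as the main sources of fibrillar collagen in fibrosis.

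The collagen genes were all genes whose symbol was Col, a type number, the letter a and a chain number. Of 32623 genes in the count table, 43 met that rule. They comprised 11 fibrillar chains, 9 FACIT chains, 6 type IV chains, 5 type VI chains, 4 membrane-spanning collagens, 3 short-chain network collagens, 2 multiplexins (Col15a1 and Col18a1), the anchoring fibril chain Col7a1, and 2 genes outside these classes (Col26a1 and Col28a1). All 43 had at least 1 count, the fewest being the 88 counts of Col10a1, a chain of growth plate cartilage, over 287 libraries.

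The study applied pulsed focused ultrasound, abbreviated pFUS, to the porta hepatis, the entry of vessels and nerves into the liver, and sequenced RNA from 8 tissues. Stimulated rats received 3 minutes of ultrasound at 1.1 MHz (150 burst cycles at 200 mV, with bursts every 500 µs). Control rats were handled alike with no energy applied, and all rats were under isoflurane. Obese ZDF (Zucker diabetic fatty) males, a strain without a working leptin receptor, were compared at 7 weeks with lean Zucker males, with 5 control and 5 pFUS rats per tissue. Exceptions were adipose tissue with 4 per group, lean muscle with 4 per group and lean pFUS intestine with 3. Lean kidney and pancreas were not analysed here. Obese ZDF males were also sampled in liver, muscle and adipose tissue after 3 days, with 4 controls, 4 rats labelled pFUS AM only x1 and 4 labelled x10. Further obese males had 4 weeks of pFUS in 3 schedules of 4 rats, with no 4-week control. DIO-stz rats at 7 weeks, with 2 male and 2 female controls and 4 male and 1 female pFUS rats in most tissues, and 2 female diet-resistant rats given pFUS completed the series. Their pFUS group had 3 rats in adipose tissue and 4 in muscle and pancreas. The labels do not give the animals' ages. They name the tissue brain, which the series' design text calls hypothalamus.

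Total counts ranged from 2380545 to 43088790 per library, with a median of 12849617. Levels are CPM, counts relative to library size, on a single TMM scale over all libraries, and no gene lengths were used, so levels are compared between samples and never between genes. On that scale blood (median factor 0.157) and pancreas (0.31) levels lie above, and brain (2.19) and adipose (2.09) levels below, those per total count. Several libraries departed from the rest. Of the 7-week adipose libraries, lean control 12, lean pFUS 17, 18 and 19 and obese pFUS 6 had summed skeletal muscle markers (Ckm, Acta1 and 7 others) of 160160.4 to 208535.6 CPM. Lean control 11 and lean pFUS 16 had summed kidney tubule markers of 2299.6 and 1521.5 CPM. Lean control liver 15 had summed smooth muscle markers of 496 CPM, against 28.9 to 35.4 in the other lean controls. Libraries are named by group and the animal number of their title. P-values measure the spread between these libraries. Fewer cells of a type and less RNA per cell cannot be told apart in such bulk samples.

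In the 7-week obese controls, adipose tissue had the highest median level of 17 of the 39 collagen genes whose highest tissue median reached 1 CPM. Brain was highest for 8, intestine for 4, kidney for 3, liver, muscle and pancreas for 2 each and blood for 1. For 34 of the 39 the highest tissue was the same when levels were taken per total count. Those that moved were Col1a1, Col9a1, Col13a1, Col20a1 and Col27a1. For 13 genes every library of the highest tissue lay above every library of the other 7 tissues. Per total count 9 of these 13 kept that separation, and Col5a3, Col13a1, Col17a1 and Col18a1 did not. The same count was not made over all genes, so it cannot set collagens apart from other genes. Col10a1, Col19a1, Col23a1 and Col26a1 had a median under 1 CPM in every tissue of these controls.

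**Figure D1:**
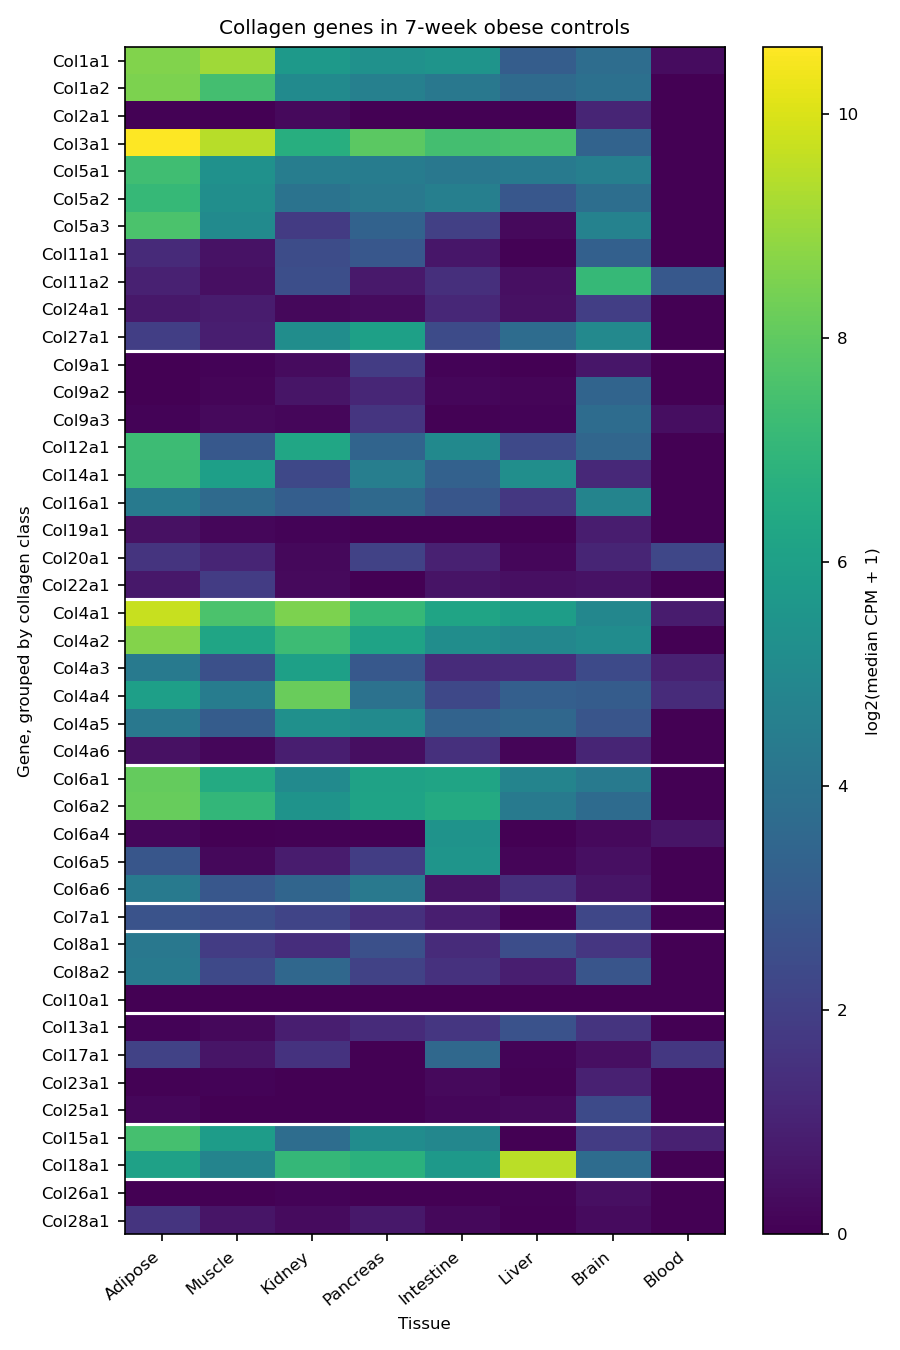
Median level of each of the 43 collagen genes in the 7-week obese controls, as log2(median CPM + 1), with genes in rows grouped by class and tissues in columns. Adipose tissue is bright across the fibrillar, type IV and type VI rows, and single bright cells mark Col18a1 in liver, Col4a4 in kidney, Col11a2 in brain and Col6a4 in intestine.

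Among the fibrillar collagens, Col1a1 encodes the chain that makes up most of type I collagen, the main protein of tendon and scar. It measured 92.3, 439, 548, 1421.2 and 1548.8 CPM in the 5 muscle libraries. Adipose tissue gave 379, 386, 392 and 766 CPM, whereas the 5 liver libraries gave 1.83 to 8.17 CPM. Muscle and adipose tissue overlapped for Col1a1 and both lay above all liver libraries. Col3a1, the type III chain of pliable tissues and vessel walls, measured 1085.4, 1416.6, 1680.3 and 1967.5 CPM in adipose tissue, and the muscle libraries spread from 254 to 1543.7 CPM. In liver Col3a1 was at 109 to 187 CPM.

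Minor fibrillar chains had their own patterns. Col5a3, a chain of the type V collagen that sets fibril diameter, ranged from 54.1 to 318 CPM in adipose tissue and from 0.0974 to 0.4 CPM in liver. The 2 low adipose libraries, 87.8 and 54.1 CPM, were those with brown-fat markers (summed 720 and 723 CPM, against 11.3 and 11.4 CPM in the others). Col11a2, a type XI chain best known from cartilage, measured 77.4, 126, 138, 146 and 153 CPM in brain, while the highest library of any other tissue reached 7.54 CPM. Col2a1, the cartilage fibril chain, was also highest in brain at 0.558 to 6.69 CPM and at 0 in all liver, muscle, pancreas and blood libraries. Col27a1, a fibrillar chain of cartilage, had 45.2, 50.3, 63.8, 73 and 91.2 CPM in pancreas, overlapping only the kidney range of 10.3 to 48 CPM.

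The FACIT chains divided by tissue. Col9a2 and Col9a3, which coat cartilage fibrils, were at 5.44 to 14.7 and 6.43 to 14.4 CPM in brain, with the next tissue, pancreas, at medians of 1.2 and 2.11 CPM. Col12a1 and Col14a1, found on type I fibrils in dense connective tissue, were highest in adipose tissue at 108 to 279 and 55 to 264 CPM. Col14a1 reached 22.3 to 44 CPM in liver, where Col12a1 was at 3.15 to 6.29 CPM. Col22a1, a collagen of the muscle-tendon junction, was highest in muscle at 1.02 to 9.5 CPM. Col16a1 peaked in brain, with a median of 26.6 CPM, and overlapped adipose tissue (5.15 to 43 CPM), kidney, muscle and pancreas.

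Type IV chains assemble in set combinations, the Col4a1 and Col4a2 chains in nearly all basement membranes and the Col4a3, Col4a4 and Col4a5 chains in the kidney glomerulus. Col4a4 measured 107, 250, 286, 289 and 366 CPM in kidney, and Col4a3 measured 38.4, 51.5, 64.4, 94.6 and 117 CPM. No other tissue's library reached those ranges, adipose tissue being next with at most 83.9 CPM for Col4a4 and 29.3 CPM for Col4a3. Col4a1 was highest in adipose tissue (484 to 1002.7 CPM) and kidney (253 to 966 CPM), and the 2 ranges overlapped. Brain was lowest of the solid tissues for Col4a1, at 23.4 to 46.8 CPM.

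Col4a1 and Col4a2 lie head to head and are known to be read outwards from a shared promoter, and so are Col4a3 and Col4a4. The stretches between their starts are shown because both genes of each pair are transcribed from them. They were cut from RefSeq promoter windows of the GRCr8 build, which held 34 of the 43 genes. Between the Col4a2 and Col4a1 starts lie 76 bases at chr16:84885521-84885596, of which 78.9% are G or C. Between Col4a4 and Col4a3 lie 412 bases, and the 250 next to the Col4a3 start, chr9:91323740-91323989, are 62% G or C. Both are printed from the plus strand, and capitals mark GGGCGG, the box bound by SP1-type factors, on either strand.
Col4a1/Col4a2: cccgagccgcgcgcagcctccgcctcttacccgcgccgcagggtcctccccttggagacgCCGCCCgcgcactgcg
Col4a3/Col4a4: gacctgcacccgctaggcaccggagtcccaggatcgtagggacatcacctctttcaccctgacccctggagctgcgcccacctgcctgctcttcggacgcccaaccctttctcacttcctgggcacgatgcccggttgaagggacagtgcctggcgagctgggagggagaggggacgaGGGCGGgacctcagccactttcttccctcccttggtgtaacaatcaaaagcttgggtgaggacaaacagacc

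Each stretch held 1 GGGCGG and neither TATAAA nor CCAAT, searched on both strands. The 300-base windows of Col4a1 and Col4a2, which reach past the 76 bases, each held CCAAT, and those of Col4a3 and Col4a4 did not. GGGCGG occurs in 18.1% of RefSeq promoter windows cut to 76 bases and in 30.5% cut to 250 bases. In the whole 300-base windows, GGGCGG was present for 19 of the 34 collagen genes (55.9%, against 33.1% of 33469 windows), CCAAT for 11 (32.4%, against 37.5%) and TATAAA for 4 (11.8%, against 14.2%).

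Within a group of rats, Col4a1 and Col4a2 varied together. The SD of their log2 ratio within groups was 0.13 to 0.25 across the 7 solid tissues, whereas each gene's own SD was 0.29 to 0.79 on the log2 scale. In brain the ratio varied nearly as much as the genes (0.25 against 0.29), and the brain ratio had a median of 0.04, against at least 0.97 in each other tissue. For Col4a3 and Col4a4 the SD of the ratio was 0.25 to 0.53, and each gene's own SD was 0.34 to 0.87. In brain (0.53 against 0.44), kidney (0.49 against 0.46) and liver (0.40 against 0.34) the ratio varied more than Col4a4 alone. Col4a5 and Col4a6, both on the X chromosome, gave ratio SDs of 0.38 to 0.84 in adipose tissue, brain, intestine and kidney. Col6a1 and Col6a2, neighbours on chromosome 20, gave 0.12 to 0.23 outside brain and 0.70 in brain. Col1a1 and Col1a2, which lie on different chromosomes but whose chains join in type I collagen, gave 0.38 to 0.83. Libraries of a pair share depth and scaling, and no test was made of these ratios.

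**Figure D2:**
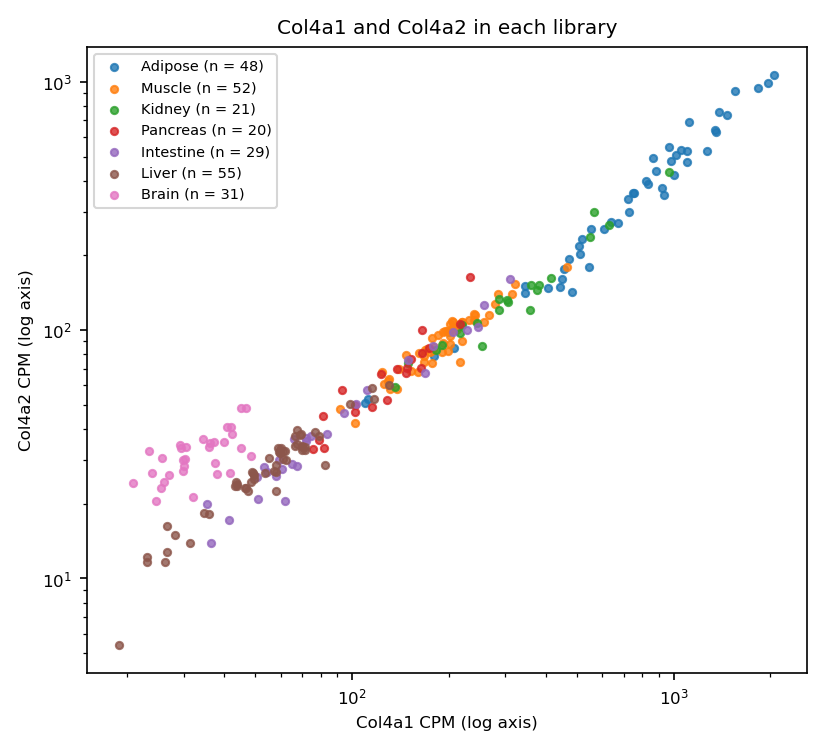
Col4a1 level (x axis, CPM, log scale) against Col4a2 level (y axis, CPM, log scale) in every library of the 7 solid tissues, 1 point per library, coloured by tissue. The points lie along a single line from liver to adipose tissue, and the 31 brain libraries sit above it.

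The type VI chains split. Col6a1 and Col6a2, present in nearly all connective tissue, were highest in adipose tissue with medians of 276 and 277 CPM. Col6a4 and Col6a5 encode further type VI chains. Col6a5 measured 37.2, 40.8, 45.7, 45.8 and 58.3 CPM in intestine, and pancreas and adipose tissue followed with at most 12.9 and 11.9 CPM. Col6a4 measured 11, 26.2, 42.9, 43.7 and 44.9 CPM in intestine and stayed at or under 1.12 CPM in every library elsewhere. Col6a6 was not an intestinal transcript (0.204 to 0.649 CPM) and was highest in adipose tissue and pancreas, whose medians were 19.2 and 18.5 CPM. Col6a6, Col6a5 and Col6a4 are consecutive protein-coding genes on chromosome 8 in the RefSeq list.

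Of the multiplexins, Col18a1, the precursor of endostatin, measured 361, 666, 721, 849 and 916 CPM in liver, all above the kidney libraries at 72.2 to 279 CPM. Col15a1, its relative of vessel and muscle basement membranes, was at 0 in 3 liver libraries and at most 0.329 CPM in the others, against 79.4 to 261 CPM in adipose tissue. Among the membrane-spanning collagens, Col17a1, a hemidesmosome component of epithelia, was highest in intestine (6.13 to 25.9 CPM). Col25a1, the precursor of an amyloid plaque component, was highest in brain (3.59 to 10.8 CPM). Col13a1 was highest in liver at 4.21 to 6.1 CPM, although per total count brain came first. The short-chain collagens Col8a1 and Col8a2, of vessel walls and of the cornea's inner layer, had adipose medians of 18.2 and 19.6 CPM. The anchoring fibril chain Col7a1 had overlapping ranges in adipose tissue (4.7 to 6.46 CPM) and muscle (2.27 to 28.9 CPM).

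Each of 7 tissues of the 7-week obese controls was then tested against the mean of the other 6 with edgeR's quasi-likelihood test, and a gene was called at a Benjamini-Hochberg adjusted p under 0.05 over all genes tested. Members under the count filter, 4 of the 43 here, were not tested, and in later comparisons the number tested is given in place of 43. Of 39 collagen genes tested, 30 were called in kidney (28 higher and 2 lower, against 50.7% of all genes called) and 30 in pancreas (28 higher and 2 lower, 57.3%). Brain had 27 calls (22 higher, 5 lower, 68.6%), muscle 22 (19 higher, 3 lower, 61.4%) and intestine 18 (15 higher, 3 lower, 58.3%). Liver was the solid tissue with more calls lower than higher, 12 against 9 (54.5%). Blood had 29 lower and 4 higher (63.3%). Adipose tissue, tested against liver and muscle in the 3-day obese controls, had 24 higher and 4 lower of 33 tested (71.5%). At least 50.7% of all genes were called in each of these comparisons of whole tissues. Of the collagen genes tested, 76.9% were called in kidney and in pancreas, 84.6% in blood, 84.8% in adipose tissue, 69.2% in brain, 56.4% in muscle, 53.8% in liver and 46.2% in intestine. Adipose tissue and pancreas cannot be told apart from the other kit that the labels give for them. RNAs without a poly(A) tail took 4.81% to 6.91% of counts in the 3-day adipose controls, 1.91% to 2.14% in the 3-day liver controls and 0.635% to 0.965% in the 3-day muscle controls, although the labels give an mRNA kit for liver and muscle.

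These splits moved with the scaling. With library size alone, brain had 33 higher and 0 lower, intestine 30 and 0, kidney 33 and 0, pancreas 8 and 4, blood 0 and 34, and adipose tissue 27 and 3. With blood left out of the other tissues, brain had 17 higher and 16 lower, intestine 8 and 14, kidney 19 and 3, liver 3 and 26, muscle 16 and 10, and pancreas 15 and 2. Calls held in the same direction under DESeq2, another set of size factors and both of these settings numbered 18 higher and 0 lower in kidney, 16 and 0 in brain, 8 and 0 in intestine, 15 and 3 in muscle, 8 and 2 in pancreas and 3 and 12 in liver. Blood, where most collagens had 0 counts, had 29 lower calls that held and no higher one. Adipose tissue had 23 higher and 3 lower calls that held. The shares of all genes called under these settings, and of all genes whose calls held, are not given. The counts in this paragraph therefore have no background.

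In kidney the calls that held included Col4a4 (log2 difference 5.17 ± 0.18, SE) and Col4a3 (4.80 ± 0.18), with Col12a1 at 4.82 ± 0.29. In brain the calls that held included Col2a1 (7.73 ± 0.65), Col25a1 (7.47 ± 0.40), Col11a2 (6.45 ± 0.26) and Col9a2 (6.05 ± 0.23). In intestine Col6a4 (9.63 ± 0.32), Col6a5 (7.39 ± 0.32) and Col17a1 (4.44 ± 0.29) led. In liver Col18a1 (5.08 ± 0.24), Col14a1 (3.59 ± 0.38) and Col13a1 (3.51 ± 0.30) were the 3 higher, and Col15a1 (-7.11 ± 0.74), Col11a1 (-5.86 ± 0.77) and Col1a1 (-2.21 ± 0.57) were among the 12 lower. In muscle Col1a1 (6.05 ± 0.31), Col1a2 (4.69 ± 0.35) and Col3a1 (4.56 ± 0.28) led, and Col27a1 (-3.40 ± 0.64) was lower. Pancreas had Col9a1 (5.28 ± 0.63), Col6a6 (4.39 ± 0.38) and Col27a1 (3.85 ± 0.28), and adipose tissue had Col15a1 (8.00 ± 0.43), Col5a3 (6.55 ± 0.37) and Col17a1 (6.28 ± 0.42).

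Between obese and lean controls most calls were in muscle. There 16 of the 31 collagen genes tested fell in obese rats and none rose, with edgeR's quasi-likelihood test. Over all genes tested, 52.6% were called and 25.5% were called lower. The median collagen difference was -1.03 on the log2 scale, against 0.07 over all genes. For 11 of the 31 tested no obese library reached any lean one, against 16.5% of all genes in that direction. By class, 7 of 10 fibrillar chains, 3 of 6 FACIT chains and 3 of 5 type IV chains fell.

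Col12a1 measured 5.16, 5.36, 6.56, 9.62 and 15 CPM in obese muscle and 50.2, 64.4, 65.1 and 140 CPM in lean muscle. No obese library came near a lean one, and the log2 difference was -3.34 ± 0.32 (SE, adjusted p = 4.13e-07). Col19a1, a FACIT chain of developing muscle and brain, had 0.0924 to 0.547 CPM in obese and 5.18 to 6.7 CPM in lean muscle (-4.44 ± 0.37, adjusted p = 7.24e-08 with edgeR). Col6a6 measured 2.58, 5.32, 6.41, 9.05 and 10.4 CPM in obese against 28.6, 34.4, 41.8 and 44 CPM in lean muscle (-2.54 ± 0.28, adjusted p = 1.51e-06 with edgeR). Both genes were lower in every obese library than in every lean one. Col11a1 (-4.14 ± 0.77) and Col24a1 (-3.12 ± 0.52), a fibrillar chain of bone, also did not overlap.

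The type I chains differed less firmly. Col1a2 measured 51.2, 140, 174, 295 and 331 CPM in obese and 316, 356, 378 and 1452.9 CPM in lean muscle, and the groups overlapped. Its difference of -1.70 ± 0.55 had an edgeR adjusted p of 0.0157, and of 0.157 without lean control 11, the highest library. Col1a1 overlapped widely (92.3 to 1548.8 against 612 to 3091.9 CPM; -0.75 ± 0.67, adjusted p = 0.359 with edgeR). Col3a1 (-0.63 ± 0.47), Col4a1 (-0.45 ± 0.23) and Col4a2 (-0.50 ± 0.22) did not pass, with adjusted p of 0.266, 0.106 and 0.0616 by edgeR. Col11a2 (-2.90 ± 1.03) lost its call in 4 of 9 refits that each left out 1 library, its adjusted p reaching 0.261 without lean control 11. Col5a2 fell by 1.03 ± 0.26 on the log2 scale and kept its call in all 9. The other called genes, Col22a1, Col4a3, Col4a5, Col27a1, Col5a1, Col4a4, Col28a1 and Col8a1, fell by 1.09 to 2.51 on the log2 scale.

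**Figure D3:**
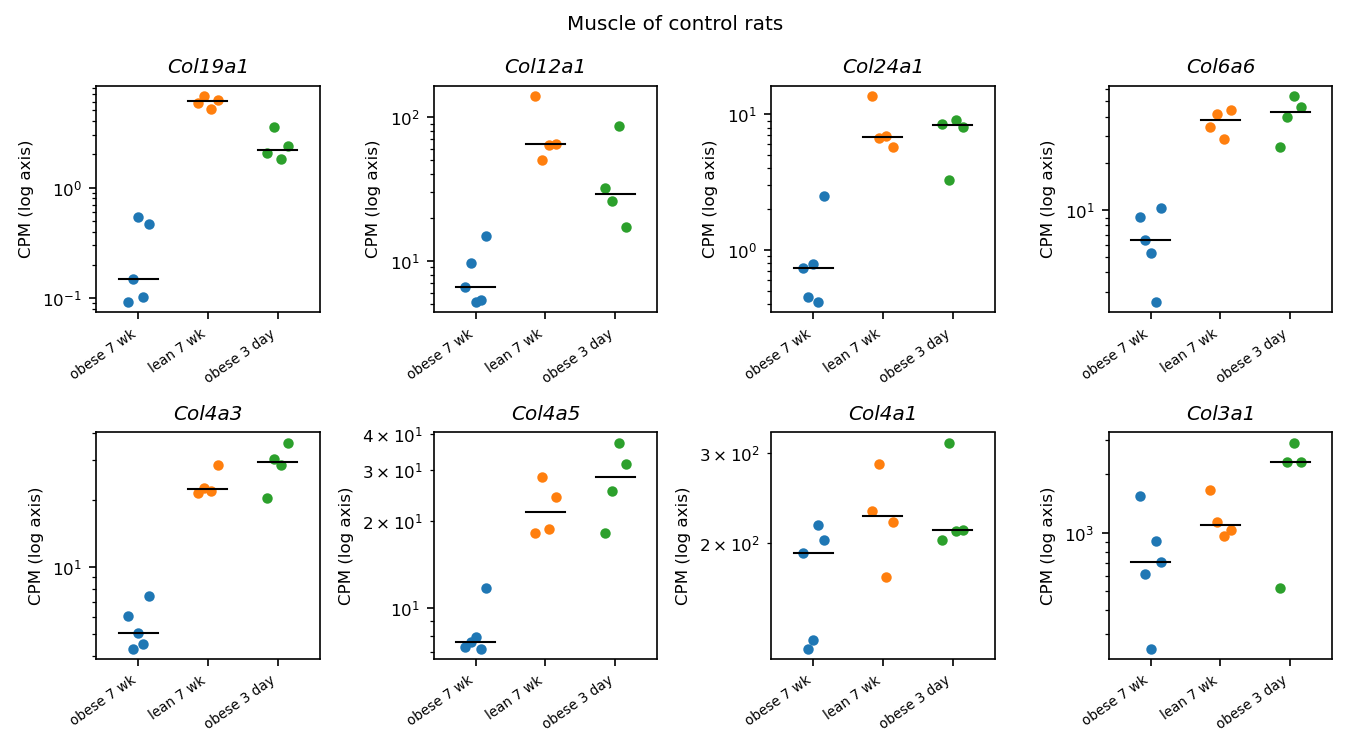
Levels (CPM, log axis) of selected collagen genes in single muscle libraries, 1 point per library, with black lines at group medians. Col12a1 is at 5.16 to 15 CPM in 7-week obese controls and at 50.2 to 140 CPM in lean controls, with the 3-day obese controls at 17.3 to 86.3 CPM.

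The muscle libraries also differed in kind. RNAs without a poly(A) tail, 6 genes by their RefSeq type, took 0.0004% to 0.00321% of counts in the 7-week obese muscle and 1.54% to 3.57% in lean muscle, although the labels give the same mRNA kit for both. Obesity and library kind cannot be told apart in this comparison. The 3-day obese controls, in which these RNAs took 0.635% to 0.965%, had a median nearer the lean than the 7-week obese median for 15 of the 16 genes that fell. For 10 of the 16 every 3-day obese library lay above every 7-week obese one. The 16 were picked for being low in these same 7-week obese libraries, which favours both counts. No share over all genes was taken for either count. Col12a1, for example, measured 17.3, 26.2, 32 and 86.3 CPM there, and Col6a6 measured 25.4, 40, 46.1 and 54 CPM. These rats differed in duration too, and the part of library kind was not tested.

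Other matrix genes in muscle did not share 1 direction, and their counts are to be read against the 52.6% of all genes called and 25.5% called lower. Of 18 tested genes that fold and export procollagen, 7 rose and 1 fell, among them the lysyl hydroxylase Plod2 (1.05) and the prolyl hydroxylase subunit P4hb (0.91), while the coat protein gene Sec23a was at -0.81. Of 11 genes that trim and cross-link collagen, 6 fell, led by the propeptide protease Adamts3 (-4.52). Of 11 in collagen breakdown, Mmp3 (4.52) and the inhibitor Timp1 (1.90) rose and Timp3 (-0.64) fell. Of 7 collagen receptors, Ddr2 (-2.50), Itga1 (-2.37), Itga2 (-2.30) and 1 more fell and Adgrg1 (1.33) rose. Of 18 matrix partners, 10 fell, including the laminin chain Lama2 (-2.02) and fibrillin Fbn1 (-1.57). All these are log2 differences, obese minus lean. All 6 adipocyte markers rose beside them, their sum being 105 to 409 CPM in obese and 23.9 to 37.3 CPM in lean muscle, and so did 5 of 7 smooth muscle markers (sums of 157 to 361 and 110 to 182 CPM). Markers listed for fibroblasts and stellate cells summed to 4505.2 to 12231.1 CPM in obese and 3041.0 to 5402.4 CPM in lean muscle. That list includes Des, which muscle fibres also express, so in muscle the sum does not measure fibroblasts. The part of all these markers in the collagen result was not tested.

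In liver the same comparison called 3 of 21 collagen genes (14.3% of all genes were called, as were 14.3% of these). Col8a1 rose by 0.87 ± 0.29 on the log2 scale (SE, edgeR adjusted p = 0.0468), from 1.93 to 3.07 CPM in lean to 2.47 to 8.22 CPM in obese controls. Col6a2 (-1.38 ± 0.38, edgeR adjusted p = 0.0187) and Col5a2 (-0.66 ± 0.21, 0.0366) fell, and neither overlapped between the groups. The share of all genes without overlap is not given for this comparison, so that separation has no background. Col5a2 measured 5.4, 6.17, 6.33, 6.5 and 7.84 CPM in obese and 9.04, 9.07, 9.2, 9.55 and 12.4 CPM in lean liver. Leaving out 1 library in turn ended the Col5a2 call in 8 of 10 refits, that of Col8a1 in 7 and that of Col6a2 in 2.

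Lean control 15 set much of this result. It had 90.2 CPM of Col1a1, against 3.67 to 7.64 in the other lean controls, 112 CPM of Col6a2, against 25.2 to 28.9, and 1957.7 CPM of Col18a1, against 621 to 733. Smooth muscle genes were high in the same library, with Myh11 at 124 CPM against 6.52 to 10.2. Without it, 4 collagen genes were called and all were higher in obese liver. Leaving out obese pFUS liver 7 as well, which enters the same fit, gave 5, the added gene being Col8a1. For these fits, and for later ones with libraries left out, the share of all genes called is not given. Their counts therefore have no background. Col4a1 measured 48.7, 49.4, 58, 62.1 and 78.7 CPM in obese and 23.1, 26.2, 26.6, 28.2 and, in library 15, 70 CPM in lean liver. With all libraries its difference was 0.73 ± 0.30 (edgeR adjusted p = 0.104), and without library 15 it was 1.14 ± 0.25 (0.00344). Col4a2 went from 0.77 ± 0.32 (0.11) to 1.17 ± 0.28 (0.00737), and Col16a1 (1.06) and Col12a1 (1.01) were the others.

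Fibrillar collagen was not called higher in obese liver. Col1a1 had a difference of -1.88 ± 0.68 (edgeR adjusted p = 0.0658), Col1a2 of -0.47 ± 0.73 and Col3a1 of -0.31 ± 0.20 (0.307). For Col1a1, lean control 15 lay far above every other library of both groups, and the other lean controls lay within the obese range. The Col1a1 difference therefore rests on that library. Estimates of these genes without lean control 15 are not given. Col3a1 ranged from 109 to 187 CPM in obese and from 140 to 319 CPM in lean liver. Other matrix genes were called higher in obese liver, with log2 differences of 2.95 for the cross-linking enzyme Lox, 1.33 for Loxl4, 0.89 for Loxl2 and 1.56 for the prolyl hydroxylase P4ha1. The inhibitor Timp3 rose (2.03) and the gelatinase Mmp2 fell (-1.23). These matrix genes were named from longer lists because they were called, and 14.3% of all genes were called in liver. Counts over those lists are not given here, so no shared direction can be read from the named genes. Of 6 macrophage markers 5 rose and of 7 smooth muscle markers 3 fell in the same comparison, and their part was not tested. Lean control 15 was also high in smooth muscle markers, and how many of them fell without it is not given.

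**Figure D4:**
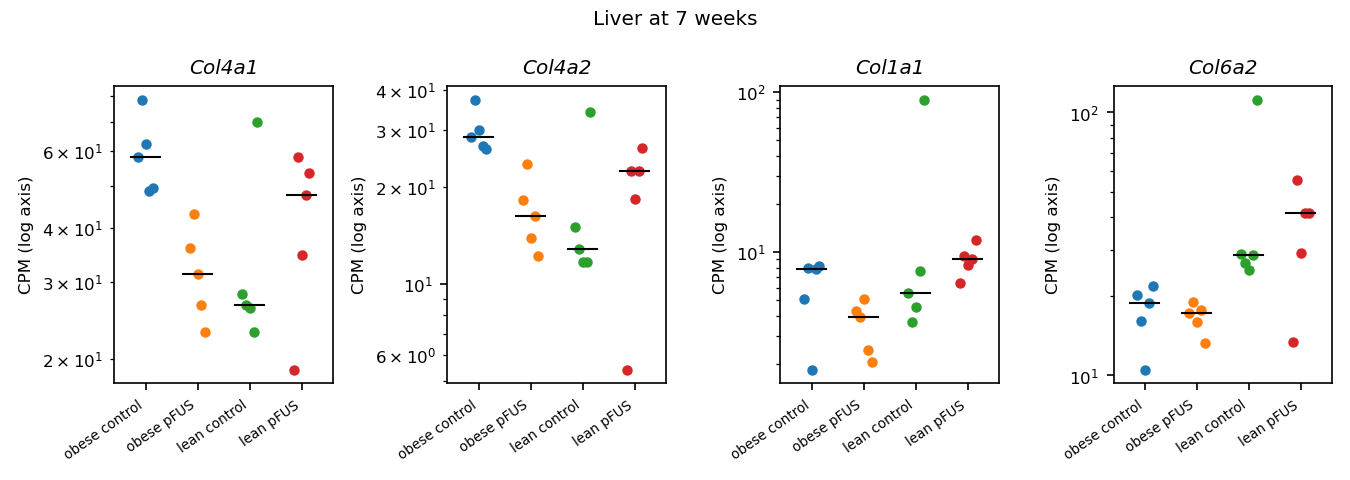
Levels (CPM, log axes) of Col4a1, Col4a2, Col1a1 and Col6a2 in each 7-week liver library, 1 point per library, with black lines at the medians of the obese and lean control and pFUS groups. For Col4a1 the 5 obese controls (48.7 to 78.7 CPM) lie above all obese pFUS libraries (23.1 to 43.1 CPM) and above 4 of 5 lean controls, the exception being lean control 15.

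In the other tissues no collagen gene passed between obese and lean controls with edgeR. In adipose tissue 0 of 33 were called (0.0291% of all genes), 6 had an unadjusted p under 0.05 (11.3% of all genes) and DESeq2 called 1, Col6a6. Col6a6 measured 14.6, 17.4, 21 and 24.1 CPM in obese and 32.2, 33.8, 38.7 and 39.2 CPM in lean adipose tissue without overlap (-0.90 ± 0.21, adjusted p = 0.28). No share of all genes without overlap is given beside it. When the adipose libraries with muscle, kidney or brown-fat genes were left out, 2 against 2 remained. Of 30 collagen genes tested then, 17 were called higher and 1 lower, with no share of all genes to set beside them. With only the libraries holding muscle or kidney genes left out, and the 2 obese controls with brown-fat genes kept, 0 were called and 4 had an unadjusted p under 0.05. In intestine 0 of 34 were called (0.0136%), 4 had an unadjusted p under 0.05, all higher (14.1% of all genes), and DESeq2 called 1, Col7a1 (edgeR 1.56 ± 0.41, adjusted p = 0.194). In brain 0 of 40 were called (0.338%), 4 had an unadjusted p under 0.05, all lower (5.76%), and DESeq2 called 0. In blood 3 genes could be tested and 0 were called (3.16%), with 0 under an unadjusted p of 0.05 and 0 by DESeq2. Col1a1, Col1a2, Col3a1, Col4a1 and Col4a2 had log2 differences of 0.14, 0.17, 0.28, 0.83 and 0.89 in adipose tissue, 0.15, -0.27, -0.63, -0.03 and 0.24 in brain, and 0.04, 0.39, -0.02, 0.21 and 0.18 in intestine.

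pFUS was compared with control in 27 combinations of tissue, rat and schedule, and edgeR's quasi-likelihood test called 0 collagen genes in all 27. Of 733 gene tests in them, 76 had an unadjusted p under 0.05, 66 lower and 10 higher with pFUS. Over all genes that share was 18.6% in obese intestine, 8.1% in obese liver, 7.55% in obese kidney and 11.6% in DIO-stz kidney. It is not given for the other comparisons or by direction, so the pooled count and its split have no background. DESeq2 made 10 calls in 4 of the comparisons. Comparisons within a tissue share controls at 3 days, and the genes of a sample are not independent.

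Obese intestine held 18 of those 76, more than any other of the 27 comparisons. There 0 of 34 collagen genes were called (0.0612% of all genes), while the 18 with an unadjusted p under 0.05 were all lower with pFUS, against 18.6% of all genes in either direction. The median collagen difference was -0.45 on the log2 scale, against -0.04 over all genes. Col3a1 measured 157, 164, 174, 175 and 220 CPM in controls and 103, 126, 134, 144 and 151 CPM with pFUS. Col4a2 measured 28.3, 29.9, 35.8, 36.9 and 38.3 CPM in controls and 13.9, 17.2, 20.6, 27.5 and 28.2 CPM with pFUS. Neither gene overlapped between the groups, nor did Col11a2, Col5a2 and Col7a1, against 2.04% of all genes in that direction.

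The edgeR differences of these genes were -0.44 ± 0.14 for Col3a1 (SE, adjusted p = 0.113) and -0.67 ± 0.19 for Col4a2 (0.0989). Col11a2 had the lowest adjusted p, 0.0542, at -1.58 ± 0.32, from 1.06 to 2.45 CPM in controls and 0.33 to 0.959 CPM with pFUS. Col14a1, at 4.49 to 9.31 CPM in controls and 3.09 to 6.37 CPM with pFUS, had an edgeR adjusted p of 0.06. Col5a2 was at -0.59 ± 0.15 (adjusted p = 0.0821 with edgeR), Col4a1 at -0.49 ± 0.16 (0.141), Col1a2 at -0.48 ± 0.25 (0.31) and Col1a1 at -0.22 ± 0.16 (0.491). DESeq2 called 5 lower, Col11a2, Col14a1, Col3a1, Col4a2 and Col5a2, and library size alone gave 17 lower calls. All collagen genes together took 0.133% to 0.176% of counts in controls and 0.0732% to 0.126% with pFUS. Summed smooth muscle markers overlapped, at 1001.0 to 1935.3 and 780 to 1850.7 CPM. The bile acid carrier Fabp6, a marker of the ileum, was at 2888.5 CPM in obese control 1 and at most 2.19 CPM in the other 9 libraries. With that library and the 2 lean controls high in Fabp6 (4674.4 and 6754.4 CPM) left out of the fit, edgeR called 3 collagen genes lower, Col11a2, Col5a1 and Col5a2. The difference of the pFUS effect between obese and lean intestine was called for 0 of 34 (0.0068%), with 6 under an unadjusted p of 0.05 and 1 call by DESeq2, Col11a2.

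**Figure D5:**
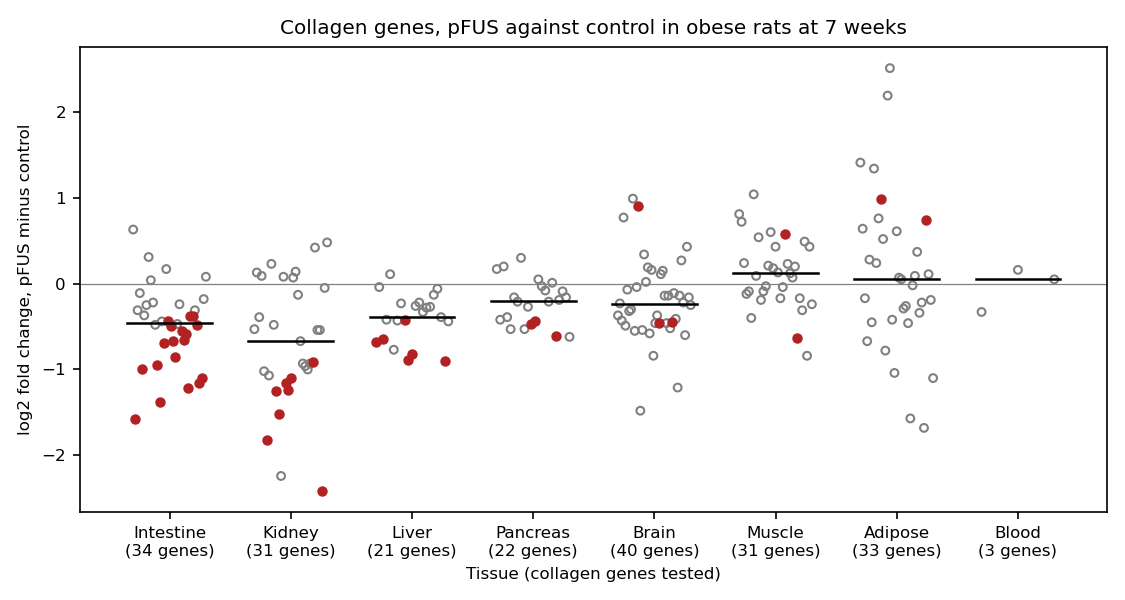
log2 difference, pFUS minus control, of each tested collagen gene in 7-week obese rats (y axis) by tissue (x axis), 1 point per gene. Filled red points have an unadjusted edgeR p under 0.05, open grey points do not, and black lines are medians over the collagen genes (-0.45 in intestine, -0.67 in kidney and -0.39 in liver); 0 genes were called after adjustment.

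In obese liver 0 of 21 were called (0.397% of all genes) and 6 had an unadjusted p under 0.05, all lower (8.1% of all genes). DESeq2 called 0. Col4a1 measured 23.1, 26.6, 31.4, 35.9 and 43.1 CPM with pFUS, every one below the lowest control at 48.7 CPM. Its difference was -0.89 ± 0.30 (SE, edgeR adjusted p = 0.311), and that of Col4a2, 12.2 to 23.6 against 26.2 to 37.4 CPM, was -0.82 ± 0.32 (0.427). Those 2 genes were the only collagens without overlap, against 1.69% of all genes in that direction. Col8a1 (-0.90 ± 0.28), Col14a1 (-0.65), Col12a1 (-0.68) and Col3a1 (-0.42) were the others under an unadjusted p of 0.05. Col1a1 was at -0.77 ± 0.68 and Col1a2 at -0.43 ± 0.73.

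In lean liver the groups overlapped for Col4a1. Of 21 collagen genes 0 were called (0.389%), 2 had an unadjusted p under 0.05 and DESeq2 called 1, Col4a3. Col4a1 measured 18.9, 34.7, 47.5, 53.5 and 58 CPM with pFUS. The lowest of these lay below every lean control. The others lay above every lean control except library 15, which lay above all pFUS libraries. Without lean control 15, edgeR called 3 higher with pFUS, Col4a1 (0.73), Col16a1 (0.84) and Col18a1 (0.57), and 2 lower, Col27a1 (-1.30) and Col4a3 (-1.47). The obese and lean pFUS effects differed by -1.20 ± 0.42 for Col4a1 (edgeR adjusted p = 0.2 with all libraries, 0 of 21 called, 0.405% of all genes, 4 under an unadjusted p of 0.05, 0 by DESeq2). Without lean control 15 that difference was -1.61 ± 0.34 (adjusted p = 0.00515) and 5 genes were called, Col4a1, Col4a2, Col16a1, Col1a1 and Col3a1, all lower. With lean control 15 in the fit edgeR made none of these calls, apart from Col4a3 in lean liver with library size alone, and DESeq2 made that of Col4a3 only.

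In obese kidney 0 of 31 were called (0.105%), 8 had an unadjusted p under 0.05, all lower (7.55% of all genes), and DESeq2 called 0. Control 2 was high, with 966 CPM of Col4a1 against 253, 357, 359 and 381 CPM in the other controls and 136, 149, 191, 216 and 304 CPM with pFUS. It also had 182 CPM of Col1a1 (other controls 28.9 to 54.3) and the lowest tubule marker level, Slc34a1 at 483 CPM against at least 1506.2 CPM in the other 9 libraries. All collagen genes overlapped between the groups. In obese pancreas 0 of 22 (0.0616%), muscle 0 of 31 (0.119%), brain 0 of 40 (0%), adipose tissue 0 of 33 (0%) and blood 0 of 3 (0%) were called, with 3, 2, 3, 2 and 0 under an unadjusted p of 0.05 and 0 calls by DESeq2. In adipose tissue, leaving out obese pFUS 6 with its muscle genes and the libraries with brown-fat genes (obese controls 4 and 5 and obese pFUS 9), along with the lean libraries above, gave 5 calls higher and 6 lower, whereas leaving out only those with muscle or kidney genes gave 0 calls and 2 under an unadjusted p of 0.05. Col6a6 was higher in every pFUS library (27.5, 27.7, 31.4 and 42.4 CPM) than in every control, at 0.74 ± 0.20 (edgeR adjusted p = 0.832). No share of all genes that separated in this way is given.

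In lean rats 0 collagen genes were called in muscle (31 tested, 0% of all genes), brain (40, 0%), intestine (34, 0.0068%) and blood (3, 0%), with 2, 4, 1 and 0 under an unadjusted p of 0.05 and 0 calls by DESeq2. The difference between obese and lean effects was called for 0 in muscle, brain and blood (0% of all genes in each), with 2, 6 and 0 under an unadjusted p of 0.05 and 0 by DESeq2.

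At 3 days 0 collagen genes were called in liver under x1 (23 tested, 1.33% of all genes) or x10 (2.08%), in muscle (33 tested, 0.0314% and 0.628%) or in adipose tissue (32 tested, 0.0216% and 0.0503%). Under an unadjusted p of 0.05 there were 2 and 2 in liver, 2 and 4 in muscle and 0 and 1 in adipose tissue, and DESeq2 called 2, in liver under x10. Col5a1 in liver measured 27.6, 27.7, 29.2 and 32.3 CPM in controls, 22.9 to 30.8 CPM under x1 and 18, 19.2, 19.8 and 25.1 CPM under x10. The x10 libraries lay below all controls and the x1 libraries did not (x10 -0.48 ± 0.14, edgeR adjusted p = 0.0732). How many of all genes separated in this way is not given. Col24a1 measured 0.248 to 0.535 CPM in controls and 0.792 to 1.78 CPM under x1 (1.60 ± 0.46, edgeR adjusted p = 0.0795), on at most 18 counts a library. The type I, III and IV chains differed by -0.96 to 0.56 on the log2 scale over the 3 tissues and both doses. After 4 weeks, muscle library 22 of the AM and PM x1 schedule had 12849.5 CPM of Col1a1 and 11039.3 CPM of Col3a1, against 415 to 836 and 425 to 640 CPM in the other 3.

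In DIO-stz rats 0 collagen genes were called in kidney (33 tested, 0% of all genes), liver (21, 0.883%), pancreas (23, 0.903%), adipose tissue (31, 0.0577%), blood (4, 0.00993%), brain (42, 0%), intestine (32, 0%) or muscle (27, 0%). Under an unadjusted p of 0.05 there were 8 in kidney (11.6% of all genes), 0 in blood and 1 in each other tissue. In kidney DESeq2 called 2. Col4a4 measured 178, 204, 267 and 273 CPM in controls and 318 to 698 CPM with a median of 595 CPM with pFUS, every pFUS library being higher (1.18 ± 0.30, edgeR adjusted p = 0.231). The share of all genes that separated upward is not given. CPM are not adjusted for sex, which was uneven between these groups. Col4a3, the neighbour of Col4a4, overlapped, at 56.7 to 173 and 100 to 210 CPM. Col1a1 measured 72.6, 148, 153 and 173 CPM in controls and 30.3, 32, 46.7, 70 and 81.6 CPM with pFUS, and 1 pFUS library overlapped the lowest control (-1.38 ± 0.36, adjusted p = 0.237). In obese ZDF kidney Col4a4 did not separate, at 107 to 366 CPM in controls and 224 to 317 CPM with pFUS.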

How the data were processed

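RNA of 8 rat tissues was sequenced in 287 libraries. Per the labels' protocols, a stranded total RNA kit was used for pancreas and adipose tissue and a stranded mRNA kit for the other tissues. The share of RNAs without a poly(A) tail goes against this in some libraries, being 0.000869% to 0.00614% of counts in DIO-stz control adipose tissue and 1.91% to 2.14% in 3-day control liver, and lean muscle and the 3-day muscle libraries also depart from it. The authors deposited RSEM expected counts per gene as whole numbers, after alignment with STAR 2.5.3a to Rnor_6.0, per the submitters' processing notes. Estimated counts can divide reads between similar genes. Groups were taken from the labels. Levels are CPM, scaled with TMM factors over all libraries on 19234 genes. Comparisons used edgeR 4.0.16 (quasi-likelihood test, TMM within each fit, filterByExpr with a minimum count of 10, Benjamini-Hochberg over all genes tested) in R 4.3.3, with 1 fit per tissue and cohort and sex as a term in DIO-stz rats. Depth is given as total counts, and low genes are limited by it. The scripts were tested on simulated data.

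The alternatives were DESeq2 1.42.0, other size factors, library size alone, no count filter, the 2 groups compared alone, leaving out each library and leaving out libraries that stood apart. Library size alone, leaving out blood and leaving out adipose libraries with muscle or kidney genes were chosen after seeing the data. Every collagen gene could be named; called members were named, with values for Col1a1, Col1a2, Col3a1, Col4a1 and Col4a2, and up to 4 called genes of each list. The members and gene lists were chosen with earlier results of these data known. Lean pFUS adipose tissue was not compared because all 4 libraries held muscle or kidney genes, and the 4-week groups have no control of their own. The number in a title was taken as the animal, so tissues of the obese controls share animals. Over pairs of tissues, 105 same-numbered pairs of libraries had a median correlation of deviations of 0.0445, against -0.00975 in 420 pairs of other numbers. No 2 libraries of a group were the same within sampling noise (477 pairs, lowest chi-square per degree of freedom 3.1). Results for the profibrotic list are not reported here.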

Additional observations from a re-analysis of the deposited data

Results flagged for a closer look

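The share of counts taken by all collagen genes was examined in 60 groups of 4 to 10 libraries, and in 10 of them the highest or lowest library stood far from the others by Dixon's criterion, which chance meets in about 1 group in 20. The highest library was muscle 22 of the 4-week AM and PM x1 schedule, with 3.07% against 0.301% in the nearest. In lean control muscle, library 11 had 0.89% against 0.348%, and in 3-day x1 muscle library 33 had 0.654% against 0.367%. Obese control kidney 2 had 0.849% against 0.334%. Lean control liver 15 had 0.195% against 0.109%, DIO-stz control liver 5 had 0.195% against 0.11%, and obese control liver 3 was the lowest of its group at 0.0631% against 0.101%. DIO-stz pFUS intestine 9 had 0.474% against 0.324%, and obese pFUS pancreas 6 had 0.0424% against 0.0264%. In obese control blood, where the share is near 0, library 5 had 0.000385% against 0.000226%.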

How the results depend on the processing

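Counts of called collagen genes that moved by over 1.5 times were as follows, and the cause was not tested. The share of all genes called is not given for these alternatives. With DESeq2 there were 2 in 3-day liver under x10, 1 each between obese and lean adipose tissue and intestine, 2 in DIO-stz kidney, 1 for lean pFUS liver, 5 for obese pFUS intestine and 1 for the obese minus lean pFUS effect in intestine. With library size alone there were 30 for intestine and 12 for pancreas against other tissues, 1 for lean pFUS liver and 17 for obese pFUS intestine. Leaving blood out gave 17 for pancreas. With only the 2 groups compared, obese against lean liver gave 1. Without the libraries that stood apart, obese against lean gave 18 in adipose tissue (17 higher, 1 lower) and 5 in liver (all higher), obese pFUS gave 11 in adipose tissue (5 higher, 6 lower) and 3 in intestine, and lean pFUS liver and the effect difference in liver gave 5 each.

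Leaving out each library in turn gave 27 to 30 calls for adipose tissue, 31 to 33 for blood, 25 to 32 for brain, 14 to 20 for intestine, 28 to 32 for kidney, 19 to 23 for liver, 23 to 26 for muscle and 27 to 32 for pancreas against other tissues. Obese against lean it gave 13 to 18 in muscle, 0 to 4 in liver and 0 to 1 in intestine. It gave 0 to 5 for lean pFUS liver and the effect difference in liver, 0 to 1 for obese pFUS intestine and for DIO-stz pancreas (1 without control 5), 0 to 2 for 3-day liver under x10, and 0 in each other comparison.

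Directions of called genes reversed against other tissues with library size alone for Col11a2 (-2.08), Col17a1 (-1.32), Col20a1 (-1.01) and Col6a4 (-0.53) in blood, Col15a1 (0.18), Col17a1 (0.24), Col18a1 (0.28) and Col4a1 (0.79) in brain, Col11a2 (0.64) in intestine, and Col1a1 (-0.30), Col1a2 (-0.46), Col4a1 (-0.07) and Col5a2 (-0.13) in pancreas. With blood left out they reversed for Col4a2 (-0.82) and Col5a2 (-0.52) in brain, Col1a1 (-0.26) and Col4a2 (-0.95) in intestine, Col3a1 (-0.20) in kidney and Col1a2 (-0.13) in pancreas. With the animal as a replicate block, calls higher and lower were 4 and 28 in blood, 21 and 5 in brain, 17 and 3 in intestine, 28 and 2 in kidney, 9 and 12 in liver, 19 and 3 in muscle, 28 and 2 in pancreas and 24 and 4 in adipose tissue, so the block moved no count by over 1.5 times. No paired analysis was possible because the groups compared share no animal numbers, in the comparisons of obese with lean and of pFUS with control. Depth limits the collagens at a few counts per library, among them Col24a1 in liver and nearly all collagens in blood.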
